A study of Mus musculus with 16 samples.

Results

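The genes described here code for splicing factors and heterogeneous nuclear ribonucleoproteins (hnRNPs), the proteins that recognise splice sites in pre-mRNA and remove introns. They were taken by name alone, as every gene whose symbol began with Srsf, Hnrnp, Sf3a, Sf3b, Luc7l, Prpf, U2af or Snrp and which had a probe set with 1 gene symbol. This gave 60 of the 12393 genes measured, and 151 of 20380 probe sets (groups of short probes against 1 transcript). There were 9 SR proteins, 18 hnRNPs, 9 subunits of SF3a and SF3b, 3 U2AF genes, 8 Sm and other snRNP proteins, 10 PRPF factors and 3 LUC7-like genes. Each gene was read from its brightest probe set over all arrays, and 39 of the 60 had others. Values of other sets are given in the text for some of these genes only. Sets that are not given can also differ from the brightest, as in Hnrnpc, Hnrnpa2b1, Snrpg, Sf3a3 and Prpf38b. The plot of every probe set shows them all. A further 15 probe sets named a gene of this kind together with another symbol and were not used, so that 5 such genes were not analysed here.

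RNA of the left lung of 16 C57BL/6 mice, wildtype or genetically deficient in adiponectin, was hybridised to 16 Affymetrix arrays, 1 per mouse. Adiponectin is a hormone released by fat cells. Exposure lasted 72 h, to room air or to ozone at 0.3 ppm, for mice of both genotypes with a mean age of 14 weeks. Ozone is an oxidant pollutant. The 4 groups (wildtype air, wildtype ozone, deficient air and deficient ozone) held 4 mice each, 2 males named M1 and M2 and 2 females named F1 and F2. The labels name neither the allele of the deficient mice nor a cell type in which it acts, and no treatment was shared by all groups. All values are log2 intensities, a difference of 1 being a doubling. Differences are ozone minus air unless stated, with the standard error of a limma fit over all 16 arrays with sex as a term, and a gene rose or fell where its Benjamini-Hochberg adjusted p over all genes was under 0.05.

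Splicing is carried out by the spliceosome, which assembles on each intron from small nuclear ribonucleoproteins. U1 binds the start of the intron and U2 the branch site, and SF3a and SF3b are parts of U2. U2AF marks the end of the intron for U2. Sm proteins form the ring around most of the small nuclear RNAs, U6 being an exception. Many PRPF proteins belong to the U4/U6.U5 tri-snRNP or act beside it. SR proteins mostly promote, and hnRNPs often restrain, the use of nearby exons, and LUC7-like proteins are associated with U1. Many genes of SR proteins and hnRNPs also make transcripts with alternative or retained segments that limit their own level, so that probe sets on different parts of such a gene can read different transcripts.

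The arrays correlated between 0.965 and 0.996 with each other and no pair was identical. Markers of lung cells were bright in all groups, those of alveolar type 2 cells averaging 12.83 to 13.26 per array and those of club cells 12.55 to 12.90. Adipoq, the gene of adiponectin, read 7.19 to 11.52 in wildtype air, 7.70 to 8.76 in wildtype ozone, 6.32 to 8.82 in deficient air and 6.07 to 6.36 in deficient ozone. The deficient ozone arrays lay below all wildtype arrays, while deficient air overlapped with both wildtype groups, through F2 at 8.82, which also carried fat markers. Wildtype air F1 and deficient air F2 carried markers of fat, up to 8.21 and 7.78 as a mean of 7 genes, and deficient air M2 carried markers of muscle at 10.01 and of squamous epithelium at 8.63. Wildtype ozone F1 is labelled ozone in all fields but its free description, which names room air, and was kept as ozone. In whole lung, fewer cells of a type and less RNA per cell cannot be told apart. Precision is limited by having 4 arrays in each group.

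RefSeq promoters (250 bases before to 50 after the start, GRCm38.p6) were found for 53 of the 60 genes. The 4 shown belong to the members with the largest rise and the 3 largest falls in wildtype mice, so that their motif content can be read beside those values. Capitals mark 3 motifs on either strand, the CCAAT box, the GC box with the letters GGGCGG, and the core bound by ETS factors, with the letters CCGGAA. Hnrnpl lies at chr7:28810640-28810939 on the plus strand, Hnrnpab at chr11:51606832-51607131 on the minus strand, Hnrnpu at chr1:178337766-178338065 on the minus strand and Srsf5 at chr12:80945249-80945548 on the plus strand.
Hnrnpl: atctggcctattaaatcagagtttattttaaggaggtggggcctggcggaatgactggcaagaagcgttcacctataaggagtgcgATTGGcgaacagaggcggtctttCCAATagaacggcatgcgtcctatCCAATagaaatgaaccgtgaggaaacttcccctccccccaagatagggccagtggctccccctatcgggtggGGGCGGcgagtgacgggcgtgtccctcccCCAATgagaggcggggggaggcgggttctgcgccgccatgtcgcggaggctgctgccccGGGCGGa
Hnrnpab: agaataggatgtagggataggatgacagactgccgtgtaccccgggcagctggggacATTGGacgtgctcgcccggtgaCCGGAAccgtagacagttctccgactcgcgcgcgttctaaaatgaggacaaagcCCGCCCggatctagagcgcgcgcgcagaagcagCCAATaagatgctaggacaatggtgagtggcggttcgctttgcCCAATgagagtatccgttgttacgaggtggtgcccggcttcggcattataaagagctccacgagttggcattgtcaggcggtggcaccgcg
Hnrnpu: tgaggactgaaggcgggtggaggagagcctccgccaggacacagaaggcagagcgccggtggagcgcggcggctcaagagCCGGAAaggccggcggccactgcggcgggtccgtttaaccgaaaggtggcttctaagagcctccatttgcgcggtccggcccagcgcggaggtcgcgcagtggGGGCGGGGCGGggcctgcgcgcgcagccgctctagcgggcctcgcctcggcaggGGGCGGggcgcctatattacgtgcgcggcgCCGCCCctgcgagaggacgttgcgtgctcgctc
Srsf5: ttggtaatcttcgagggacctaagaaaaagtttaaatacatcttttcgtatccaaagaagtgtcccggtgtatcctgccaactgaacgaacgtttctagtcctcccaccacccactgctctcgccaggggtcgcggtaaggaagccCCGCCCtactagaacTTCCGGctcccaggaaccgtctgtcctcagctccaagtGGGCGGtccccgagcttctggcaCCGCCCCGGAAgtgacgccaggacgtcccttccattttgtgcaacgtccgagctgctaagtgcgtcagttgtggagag
Hnrnpl held 4 CCAAT motifs and 0 CCGGAA, Hnrnpab held 3 and 1, Hnrnpu 0 and 1, and Srsf5 0 and 2. In Srsf5 1 CCGGAA overlapped a GGGCGG motif read on the other strand. CCGGAA was present in 27 of the 53 promoters (50.9%), against 23.8% of the 9887 promoters of measured genes. CCAAT was present in 50.9% against 38.1%, GGGCGG in 64.2% against 57.5% and the E box CACGTG in 11.3% against 9.33%. The median GC content was 60% for the members and 59.3% for the measured genes. These shares describe the letters in a window and show no binding.

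Ozone in wildtype mice raised some splicing factor genes and lowered as many others. Of the 60 members 12 rose and 12 fell, 40% in all, near the 36.7% of all genes called. In each direction the share was 20%, against 19.6% of all genes rising and 17.1% falling. The median difference was 0.032, the same as over all genes. In deficient mice 13 rose and 5 fell, 30% against 30.3% of all genes. There the rises came to 21.7% against 15.8% and the falls to 8.33% against 14.6%, and the median was 0.073 against 0.012. The 2 ozone comparisons use different mice. In both genotypes 11 members rose and 5 fell, 8 were called in wildtype mice alone, 2 in deficient mice alone and 34 in neither. The same split was not counted over all genes, so it is not shown to be particular to the members. The differences were small for most members: 5 passed the test with at least a 1.5-fold change in wildtype mice (8.33% against 6.29% of all genes) and 3 in deficient mice (5% against 5.99%).

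**Figure D1:**
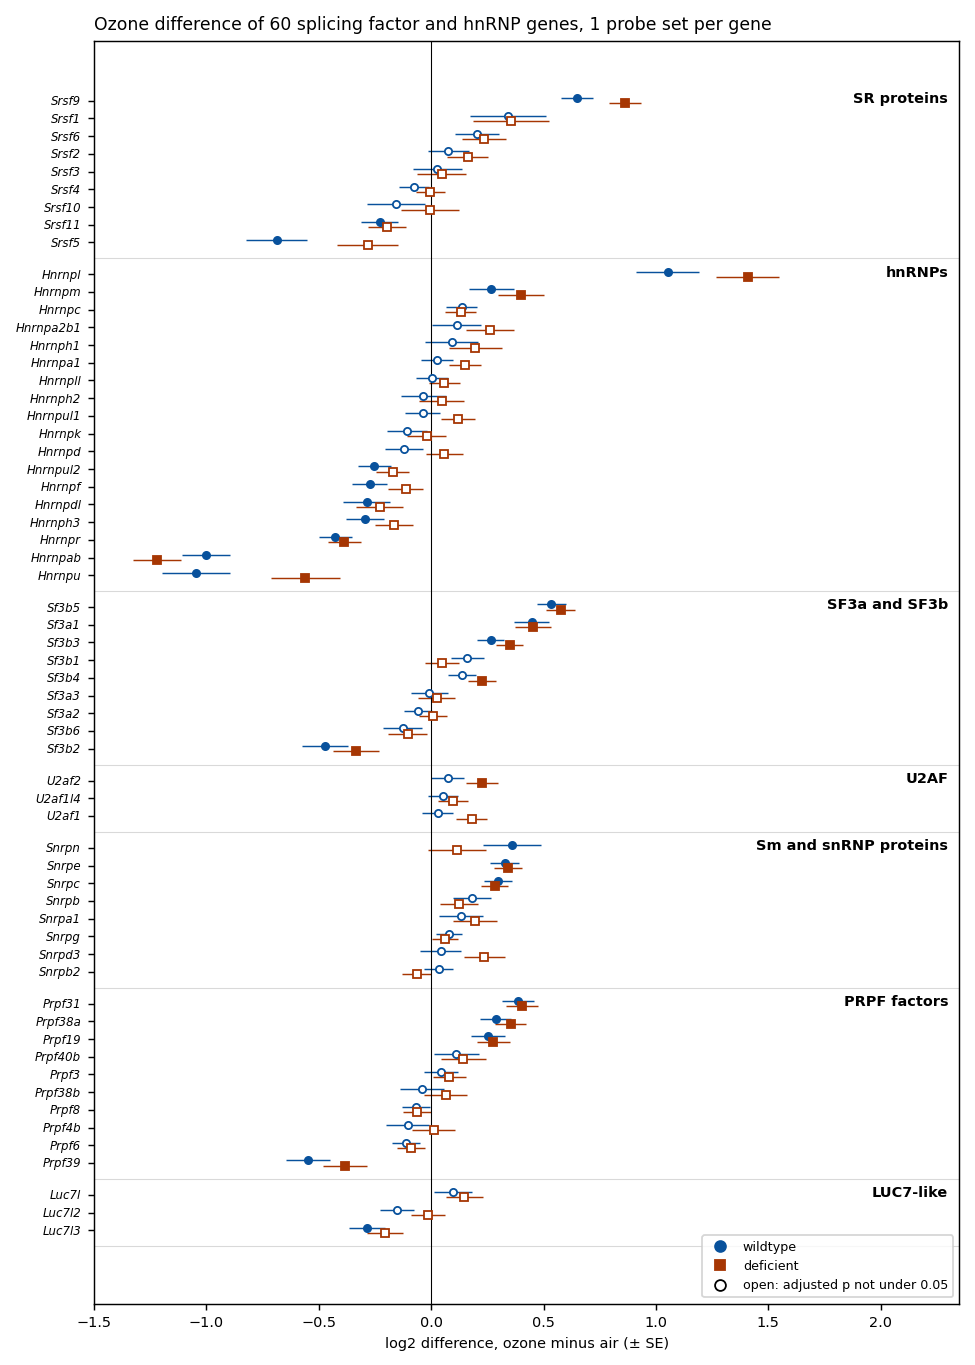
Log2 difference between ozone and air (horizontal axis, ± SE of the fit) of the brightest probe set of each of the 60 genes, by family, in wildtype (circles) and deficient mice (squares); filled symbols have an adjusted p under 0.05. Hnrnpl stands highest in both genotypes, at 1.05 and 1.41, and in wildtype mice Hnrnpu, which fell by 1.05, and Hnrnpab, which fell by 1.00, stand lowest.

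Among SR proteins, Srsf9 was the 1 that rose, in both genotypes, and Srsf5 and Srsf11 fell in wildtype mice. Srsf9, a small SR protein that acts in alternative splice site choice, read 9.58, 9.34, 9.17 and 9.31 in wildtype air and 10.04, 9.93, 9.99 and 10.03 in wildtype ozone, where sets of 4 values here and below list M1, M2, F1 and F2. In deficient mice it read 9.37, 9.25, 9.30 and 9.35 in air and 10.20, 10.24, 10.21 and 10.07 in ozone. Every ozone array lay above every air array. The rise was 1.57-fold in wildtype mice (0.65 ± 0.07, adjusted p = 1.63e-05) and 1.82-fold in deficient mice (0.86 ± 0.07, adjusted p = 8.18e-07).

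Srsf5, which promotes exon inclusion and is known as an immediate early gene in regenerating liver, read 11.72, 11.64, 11.95 and 11.51 in wildtype air and 10.63, 11.00, 11.13 and 11.31 in wildtype ozone, without overlap. The fall was 1.61-fold (-0.69 ± 0.14, adjusted p = 0.00125). Deficient mice read 11.24, 11.38, 12.01 and 11.90 in air and 11.38, 11.11, 11.64 and 11.28 in ozone. Those groups overlapped, with both air females above the other arrays of that genotype, and the difference of -0.28 did not pass the test (adjusted p = 0.134). Srsf11, an SR-related protein that contacts U2AF, differed by -0.23 ± 0.08 in wildtype mice (adjusted p = 0.0437). That call was lost without any 1 of 8 arrays, wildtype air M1, M2 and F1, wildtype ozone M1, M2 and F2, and deficient ozone M1 and F1 (adjusted p 0.0503 to 0.124), and without the 3 air arrays with fat, muscle or squamous markers (adjusted p = 0.0735). The brightest probe sets of Srsf1, Srsf2, Srsf3, Srsf4, Srsf6 and Srsf10 did not pass the test in either genotype, with differences from -0.16 (Srsf10) to 0.36 (Srsf1). For Srsf1, the founding SR protein, the difference of 0.36 in deficient mice had an adjusted p of 0.129, and of 0.0435 without deficient air F2.

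The hnRNPs, the largest family, had the most falls, 7 of 18 in wildtype mice and 3 of 18 in deficient mice. Rises were 2 in each. Of all genes 17.1% fell and 19.6% rose in wildtype mice, and 14.6% and 15.8% in deficient mice. The counts by family have no test. Hnrnpl, which binds CA-rich RNA and regulates alternative exons such as those of Ptprc (CD45) in lymphocytes, rose most of all members. It read 7.83, 7.90, 7.46 and 7.22 in wildtype air and 8.79, 8.47, 8.51 and 8.85 in wildtype ozone. The deficient mice gave 7.19, 7.42, 7.43 and 7.46 in air and 8.80, 8.59, 8.98 and 8.76 in ozone. The groups were far apart in both genotypes, a 2.08-fold rise in wildtype mice (1.05 ± 0.14, adjusted p = 6.74e-05) and a 2.66-fold rise in deficient mice (1.41 ± 0.14, adjusted p = 5.13e-06). Hnrnpl has 1 probe set, so no other probe set could be set beside it.

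Hnrnpm, a nuclear hnRNP that regulates alternative exons, rose by 0.40 ± 0.10 in deficient mice (adjusted p = 0.00718). In wildtype mice its difference of 0.27 lay at the threshold (adjusted p = 0.0498). It read 9.29, 9.35, 8.92 and 8.92 in wildtype air and 9.34, 9.36, 9.49 and 9.36 in wildtype ozone, with overlap through air M2 alone. The wildtype call was lost without any 1 of 12 arrays (adjusted p 0.0537 to 0.153), the exceptions being wildtype air M1 and M2 and deficient ozone M2 and F2. Without the 3 air arrays with fat, muscle or squamous markers the difference was 0.20 (adjusted p = 0.179).

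Hnrnpu, a large nuclear matrix hnRNP also called SAF-A, read 11.60, 11.42, 11.53 and 11.33 in wildtype air and 10.27, 10.35, 10.53 and 10.56 in wildtype ozone on its brightest probe set. Among deficient mice the values were 10.88, 11.01, 11.32 and 11.37 in air and 10.84, 10.78, 10.67 and 10.06 in ozone. All ozone arrays lay below the air arrays of their genotype, by a wide gap in wildtype mice and a narrow one in deficient mice. The falls were 2.06-fold (-1.05 ± 0.15, adjusted p = 0.000131) and 1.47-fold (-0.56 ± 0.15, adjusted p = 0.0117). The deficient call was lost without the 3 air arrays with fat, muscle or squamous markers (-0.51, adjusted p = 0.0711), with only the arrays of the groups compared (adjusted p = 0.0520) and on the mean of all its probe sets (-0.23, adjusted p = 0.101).

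Hnrnpab, an RNA-binding protein of the A/B group, read 13.32, 13.15, 13.41 and 13.38 in wildtype air and 12.12, 12.51, 12.13 and 12.49 in wildtype ozone on its brightest probe set. For deficient mice the arrays read 13.41, 13.22, 13.47 and 13.17 in air and 12.07, 12.20, 11.93 and 12.20 in ozone. The groups did not overlap in either genotype, and it fell by 1.00 ± 0.11 (adjusted p = 1.23e-05) and by 1.22 ± 0.11 (adjusted p = 1.39e-06), a 2.00-fold and a 2.33-fold change. Other probe sets of Hnrnpu and Hnrnpab rose, as given below.

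Hnrnpr, a relative of the cytoplasmic RNA-binding protein Syncrip, fell in both genotypes without overlap, by 0.43 ± 0.07 (adjusted p = 0.000448) and by 0.39 ± 0.07 (adjusted p = 0.00103). On its second brightest set, 1437526_x_at, the wildtype call was kept. The deficient difference there was -0.19 (adjusted p = 0.271). Its set 1452030_a_at read 8.55 to 8.96 in wildtype air and 7.53 to 7.73 in wildtype ozone. In wildtype mice alone Hnrnpul2 (-0.25), Hnrnpf (-0.27), Hnrnpdl (-0.29) and Hnrnph3 (-0.29) also fell, with adjusted p between 0.0129 and 0.0460. Hnrnpf and Hnrnph3 bind G-rich tracts beside exons. In wildtype mice Hnrnpf rose by 0.27 on its second brightest set, 1423382_a_at (adjusted p = 0.00806). On the mean of all its probe sets the call of Hnrnpf was lost. The call of Hnrnph3 was lost without wildtype air M2 or wildtype ozone M2 (adjusted p 0.0518 and 0.0539). That of Hnrnpdl was lost without any 1 of 10 arrays (adjusted p 0.0506 to 0.104), the exceptions being wildtype air M2, deficient air M2, F1 and F2 and deficient ozone M1 and F2. Without the 3 air arrays with fat, muscle or squamous markers its adjusted p was 0.0517. In deficient mice Hnrnpdl differed by -0.23 (adjusted p = 0.119), and by -0.34 without deficient air M2 (adjusted p = 0.0139). The widely used core members Hnrnpa1, Hnrnpa2b1, Hnrnpc, Hnrnpk and Hnrnpd did not pass the test on their brightest probe sets in either genotype.

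**Figure D2:**
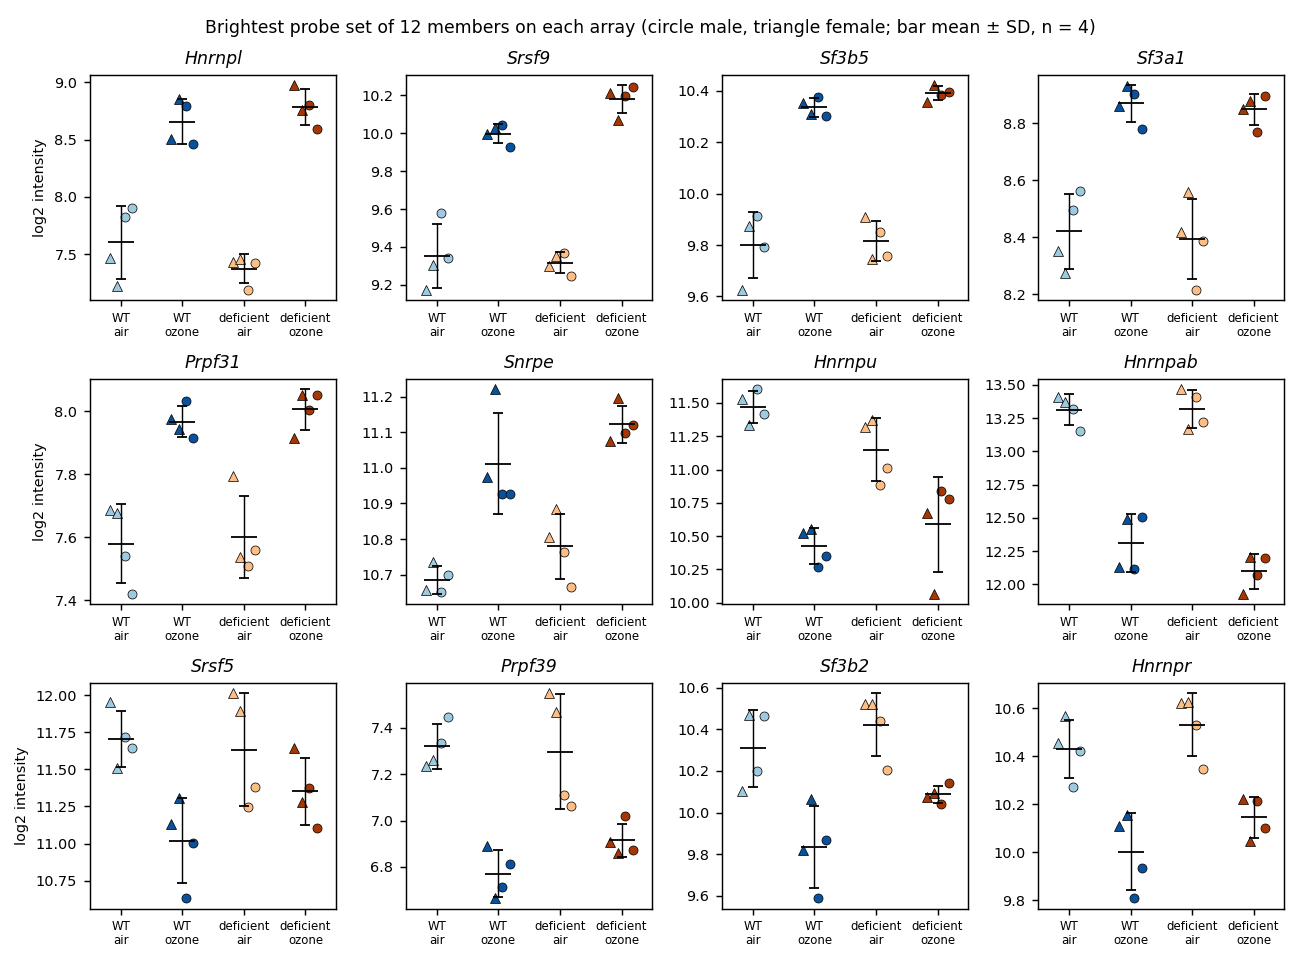
Log2 intensity (vertical axis, a scale of its own for each gene) of the brightest probe set of 12 genes on each of the 16 arrays, by group; circles are males, triangles females, and bars the mean ± SD of 4 arrays. The first 6 genes rose without overlap in both genotypes. The other 6 fell without overlap in wildtype mice, and of these Srsf5 alone overlapped in deficient mice.

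In the SF3 complexes of U2, 3 of 9 subunits rose and 1 fell in wildtype mice, and 4 rose and 1 fell in deficient mice. Over all genes 19.6% rose and 17.1% fell, then 15.8% and 14.6%. Sf3b5, the smallest SF3b subunit, read 9.91, 9.79, 9.63 and 9.88 in wildtype air and 10.38, 10.30, 10.35 and 10.31 in wildtype ozone. In the deficient groups the values were 9.85, 9.76, 9.91 and 9.74 in air and 10.39, 10.40, 10.36 and 10.42 in ozone. The ozone arrays lay above the air arrays without overlap and close to each other, with rises of 0.53 ± 0.06 (adjusted p = 3.12e-05) and 0.58 (adjusted p = 1.34e-05). Its second probe set read 3.95 to 4.11 on all arrays, close to the lowest intensity in the table (11.1 before the log), so its differences of -0.036 and -0.044 say nothing of direction.

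Sf3a1, the SF3a subunit that contacts the U1 snRNP, rose by 0.45 ± 0.08 in both genotypes without overlap (adjusted p = 0.000502 and 0.000514). Its second probe set differed by -0.027 and -0.070 and did not pass the test. Sf3b3 rose by 0.26 and 0.35 ± 0.06 (adjusted p = 0.00330 and 0.000493). Sf3b4 rose in deficient mice (0.23, adjusted p = 0.0124) and differed by 0.14 in wildtype mice. Sf3b2, the partner of Sf3b4 in the complex, fell by 0.47 ± 0.10 in wildtype mice (adjusted p = 0.00238). It fell by 0.34 ± 0.10 in deficient mice (adjusted p = 0.0210), with 1 other probe set rising. The falls were read on 1438637_x_at alone. The wildtype call was lost on the mean of all its probe sets and on its second brightest (adjusted p up to 0.376). There the deficient differences were 0.044 and 0.018. The deficient call was lost without any 1 of deficient air M1, F1 and F2 and deficient ozone F1 and F2 (adjusted p 0.0542 to 0.0601). Sf3b1, the large subunit that binds the branch site and is often mutated in myelodysplastic syndromes, differed by 0.16 and 0.048 on its brightest probe set and did not pass the test.

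The U2AF genes changed little. U2af2, which binds the polypyrimidine tract, rose by 0.23 ± 0.07 in deficient mice (adjusted p = 0.0287) and differed by 0.074 in wildtype mice (adjusted p = 0.455). Without deficient air M1 or F2, or without deficient ozone M2, F1 or F2, the rise no longer passed (adjusted p 0.0515 to 0.1002), nor did it without the 3 air arrays with fat, muscle or squamous markers (adjusted p = 0.0817). U2af1, which reads the last bases of the intron, differed by 0.029 and 0.18 (adjusted p = 0.767 and 0.0596). The deficient value passed without wildtype air F2, deficient air M2 or deficient ozone M1 (adjusted p 0.0189 to 0.0483).

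Of the Sm and snRNP proteins 3 of 8 rose and 0 fell in wildtype mice, and 2 rose and 0 fell in deficient mice. The shares over all genes were 19.6% and 17.1%, then 15.8% and 14.6%. Snrpe, an Sm ring protein, read 10.65, 10.70, 10.66 and 10.73 in wildtype air and 10.93, 10.93, 10.97 and 11.22 in wildtype ozone. Values in deficient mice were 10.76, 10.66, 10.80 and 10.89 in air and 11.10, 11.12, 11.08 and 11.19 in ozone. The groups were separate in both genotypes, with rises of 0.33 ± 0.06 (adjusted p = 0.00104) and 0.34 (adjusted p = 0.000808). Snrpc, the U1 protein U1-C, rose by 0.30 and 0.28 ± 0.06 (adjusted p = 0.00179 and 0.00286). Snrpn, an imprinted Sm protein gene mainly active in brain, was dim, at 6.49 to 6.80 in wildtype air and 6.80 to 7.35 in wildtype ozone. Its difference of 0.36 ± 0.13 passed the test in wildtype mice (adjusted p = 0.0385) and the groups touched. That call was lost without wildtype air M1, M2 or F2 or wildtype ozone M1 or F2 (adjusted p 0.0653 to 0.142), and in deficient mice the difference was 0.12 (adjusted p = 0.541). Snrpb, the precursor gene of Sm B and B', differed by 0.18 in wildtype mice (adjusted p = 0.104). It passed without wildtype air F2 or wildtype ozone F2 (adjusted p 0.0162 and 0.0292).

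Among PRPF factors 3 of 10 rose and 1 fell in each genotype, against 19.6% and 17.1% of all genes in wildtype mice and 15.8% and 14.6% in deficient mice. Prpf31, a U4 snRNP protein mutated in a form of retinitis pigmentosa, read 7.54, 7.42, 7.69 and 7.68 in wildtype air and 8.03, 7.91, 7.98 and 7.94 in wildtype ozone. The arrays of deficient mice read 7.51, 7.56, 7.79 and 7.54 in air and 8.005, 8.05, 7.91 and 8.05 in ozone. The groups were separate, with rises of 0.39 ± 0.07 (adjusted p = 0.000746) and 0.41 (adjusted p = 0.000574). Its second probe set differed by -0.24 in both genotypes and did not pass the test. Prpf38a, of the precatalytic spliceosome, rose by 0.29 and 0.35, and Prpf19, the ubiquitin ligase at the head of the Prp19 complex, by 0.25 and 0.28, all with adjusted p of 0.0149 or less. Prpf39, associated with U1, read 7.34, 7.45, 7.23 and 7.26 in wildtype air and 6.71, 6.81, 6.89 and 6.67 in wildtype ozone. In deficient mice it read 7.11, 7.06, 7.55 and 7.47 in air and 7.02, 6.87, 6.91 and 6.86 in ozone. Each ozone array was below the air arrays of its genotype, narrowly in deficient mice, with falls of 0.55 ± 0.10 (adjusted p = 0.000679) and 0.38 ± 0.10 (adjusted p = 0.00873). Prpf8, the central scaffold of the spliceosome, differed by -0.068 and -0.063 and did not pass the test.

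Of the LUC7-like genes Luc7l3 fell in wildtype mice (-0.28 ± 0.08, adjusted p = 0.0126). In deficient mice it differed by -0.20 (adjusted p = 0.0661), and passed without deficient air M2 or wildtype air M1 (adjusted p 0.0362 and 0.0457). Luc7l and Luc7l2 did not pass on their brightest probe sets. In deficient mice Luc7l differed by 0.15 (adjusted p = 0.203), and by 0.23 without deficient ozone M1 (adjusted p = 0.0380).

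In some members, probe sets of the same gene went in opposite directions. Of the 39 members that have several, 6 held both a rising and a falling set in wildtype mice (15.4%, against 3.71% of 4956 genes with several), and 3 in deficient mice (7.69% against 1.88%). These members had a median of 3 probe sets, against 2 over all genes with several, and the part of this number in the shares was not tested. Sets whose name ends in _s_at or _x_at can also bind transcripts of related genes, so their values are less certain for a single gene. The 6 were Hnrnpab, Hnrnpf, Hnrnpu, Luc7l, Sf3b2 and Srsf1, and the 3 were Hnrnpab, Hnrnpu and Sf3b2. Counted one by one with p adjusted over all probe sets, 29 of the 151 rose in wildtype mice (19.2% against 18.3% of all) and 41 fell (27.2% against 18.9%). In deficient mice 34 rose (22.5% against 14.8%) and 21 fell (13.9% against 15.5%).

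**Figure D3:**
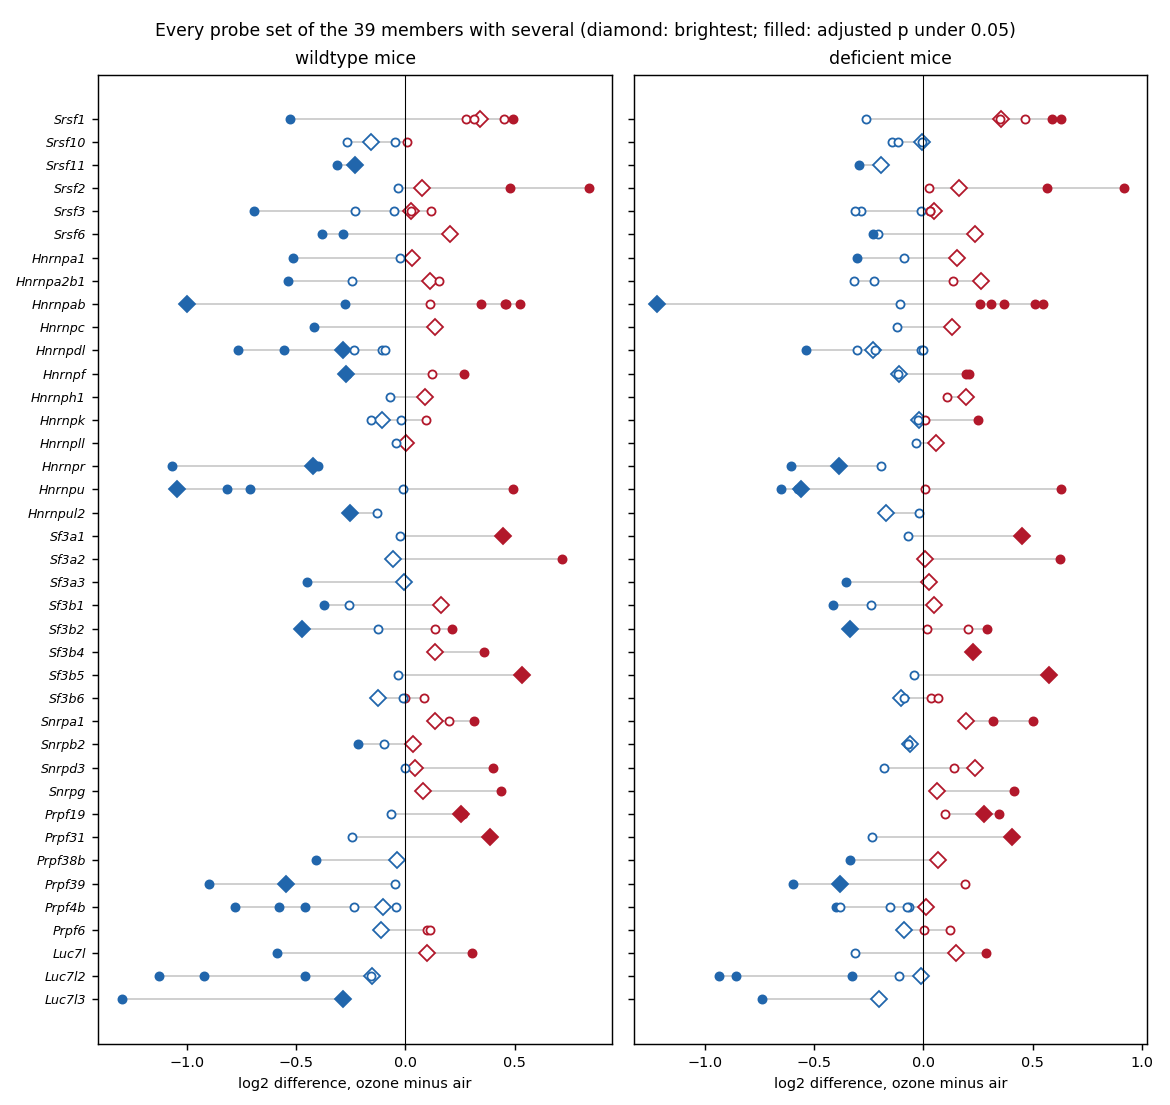
Log2 difference between ozone and air (horizontal axes) of every probe set of the 39 genes that have several, in wildtype and in deficient mice; diamonds are the brightest probe set of a gene, filled symbols have an adjusted p under 0.05, red is above 0 and blue below. Grey lines span each gene's probe sets, and those of Hnrnpab and Hnrnpu reach furthest to both sides of 0.

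In Hnrnpab the brightest probe set, 1426114_at, fell by 1.00 in wildtype mice while 4 of the other 6 rose, by 0.35 to 0.53, and 1459880_at fell by 0.28. The last was dim, at 4.48 to 5.15 over all arrays, as was 1431349_at, a rising set, at 4.51 to 5.19. The direction of these dim sets is less certain. Probe set 1415914_at read 10.98, 10.90, 10.71 and 10.87 in wildtype air and 11.31, 11.39, 11.35 and 11.25 in wildtype ozone, a rise of 0.46 ± 0.06 (adjusted p = 8.32e-05) with no overlap. In deficient mice 5 of the other 6 rose, by 0.26 to 0.55. The direction of Hnrnpab therefore depends on the probe set, and the mean over its 7 probe sets, the dim ones included, differed by 0.090 and 0.096.

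In Hnrnpu probe set 1423051_at rose by 0.49 ± 0.07 in wildtype mice (adjusted p = 6.71e-05) and by 0.63 in deficient mice (adjusted p = 7.97e-06), against the fall of the brightest. It read 10.29, 10.20, 10.22 and 10.10 in wildtype air and 10.68, 10.58, 10.70 and 10.82 in wildtype ozone. Probe sets 1434391_at and 1434390_at fell with the brightest, by 0.82 and 0.71 in wildtype mice and by 0.65 and 0.57 in deficient mice. The remaining probe set, 1423050_s_at, differed by -0.0091 and 0.0056 and did not pass the test.

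**Figure D4:**
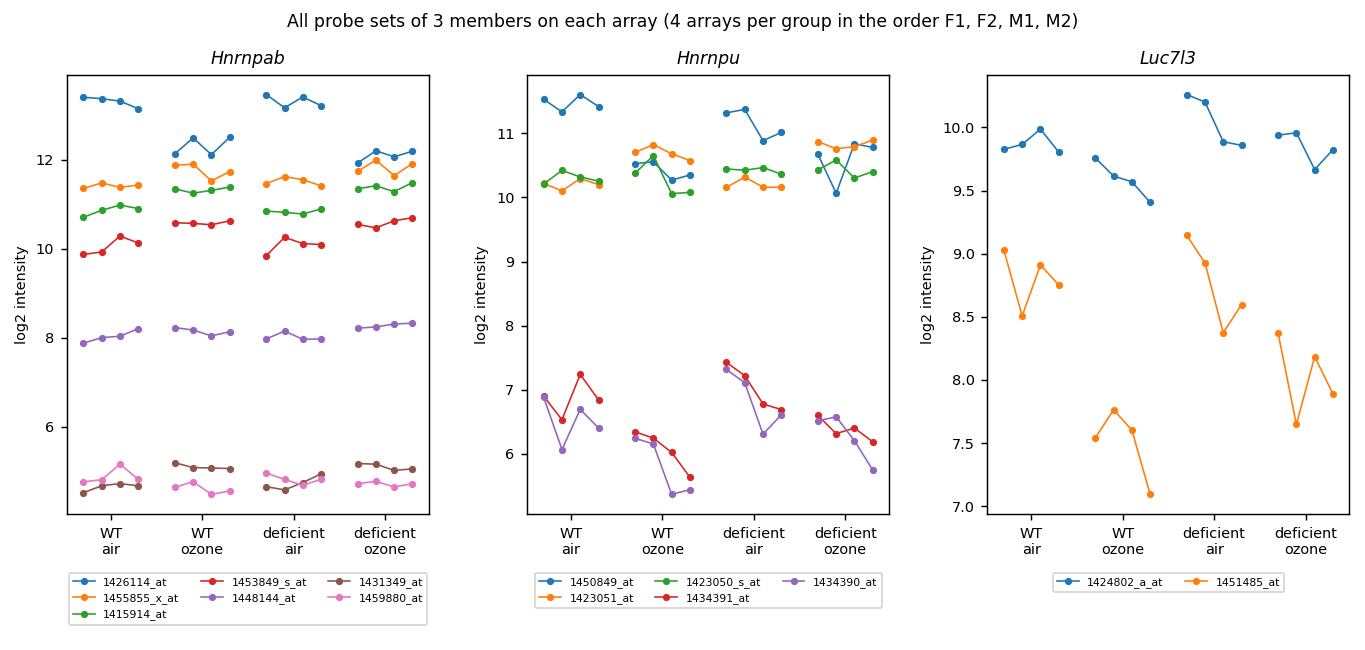
Log2 intensity (vertical axes) of all probe sets of Hnrnpab, Hnrnpu and Luc7l3 on each array, 4 arrays per group in the order F1, F2, M1, M2; each line is 1 probe set and levels of different probe sets are not comparable. In Hnrnpab and Hnrnpu lines rise and fall between air and ozone, and in Luc7l3 both fall, the dimmer one by 1.30 in wildtype mice.

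Several fixed members that did not pass on the brightest probe set moved on another. Srsf2, which promotes exon inclusion and is often mutated in myelodysplastic syndromes, differed by 0.076 on its brightest probe set. Probe set 1415807_s_at rose by 0.84 ± 0.12 (adjusted p = 9.55e-05) and by 0.92 in deficient mice, and 1452439_s_at rose by 0.48 and 0.57. The former read 8.15 to 8.76 in wildtype air and 8.94 to 9.44 in wildtype ozone, without overlap. For Srsf1, 1453722_s_at rose by 0.49 and 0.59 while 1428100_at fell by 0.53 in wildtype mice. For Srsf3, 1438215_at fell by 0.69 in wildtype mice, while the brightest differed by 0.027 and did not pass the test. For Srsf6 both other sets fell in wildtype mice, by 0.29 and 0.38, against 0.21 on the brightest. For Hnrnpa1, 1436549_a_at fell by 0.52 and 0.30.

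Falls on second probe sets were largest in the LUC7-like genes. In Luc7l3 1451485_at read 8.91, 8.75, 9.03 and 8.51 in wildtype air and 7.60, 7.09, 7.54 and 7.76 in wildtype ozone, a fall of 1.30 ± 0.18 (adjusted p = 7.76e-05). In deficient mice it fell by 0.74 (adjusted p = 0.00559). In Luc7l2 1436766_at fell by 1.13 ± 0.21 and by 0.86 (adjusted p = 0.000671 and 0.00530), while the brightest differed by -0.15 and -0.012. In Luc7l 1431181_a_at rose by 0.31 and 1452708_a_at fell by 0.59 in wildtype mice. Prpf4b, a kinase of the spliceosome, fell on 1425498_at, by 0.78 ± 0.07 (adjusted p = 1.44e-06) and by 0.40, against -0.10 and 0.012 on the brightest. Sf3b1 fell on 1418562_at by 0.37 and 0.42. Sf3a2 rose on 1450576_a_at by 0.72 ± 0.08 and 0.62 (adjusted p = 9.35e-06 and 2.87e-05), where all ozone arrays (8.27 to 8.36 in wildtype mice) lay above all air arrays (7.47 to 7.69). The direction stated here for a member with several probe sets therefore holds for the probe set named, or for the brightest where none is named. The probe sequences were not used here, so which transcripts each set reads was not tested.

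No member differed between genotypes at the threshold. In air 0 of 60 were called (0.00807% of all genes, 1 gene), in ozone 0 (0.0161%, 2 genes), and the test of whether the ozone difference itself differed by genotype called 0 of 60 (0% of all genes). At an unadjusted p under 0.05 there were 1, 9 and 1 members (1.67%, 15% and 1.67%), against 732, 1392 and 605 of the 12393 genes (5.91%, 11.2% and 4.88%). In air the smallest p values were those of Luc7l3 (0.18, adjusted p = 0.819), Hnrnpu (-0.32, adjusted p = 0.827) and Snrpb2 (0.14, adjusted p = 0.827). In ozone they were those of Luc7l3 (0.26, deficient higher, 95% interval 0.089 to 0.43, adjusted p = 0.280), Hnrnpd (0.24, adjusted p = 0.312) and Luc7l2 (0.22, adjusted p = 0.324).

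For the difference between genotypes in the ozone response, Hnrnpu had 0.49 (95% interval 0.026 to 0.95), Srsf9 0.22 (-0.0010 to 0.43) and Srsf5 0.41 (-0.0033 to 0.81), each with an adjusted p of 0.983. These intervals are wide beside the ozone differences themselves, so the responses of the genotypes are shown neither to differ nor to be alike. The ozone difference was more positive in deficient mice for 52 of 60 members (86.7%, against 48.7% of all genes). Members are not independent of each other, and this count has no test. When each array was shifted to a common median it was 43 of 60, against 39.6% of all genes, with their second brightest probe sets 44, and over the arrays left out in turn 45 to 53. In ozone 88.3% of members were higher in deficient mice, against 47.1% of all genes, a share that rests on the same ozone arrays.

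By sex, 1 of 60 members was called (1.67% against 5.66% of all genes). Hnrnph3 was higher in females by 0.25 ± 0.06 (adjusted p = 0.0271, 8 mice of each sex). It read 8.63 and 8.70 in wildtype air males and 8.65 and 8.68 in females, but 8.30 and 8.04 in wildtype ozone males and 8.62 and 8.53 in females. Deficient mice read 8.69 and 8.66 in air males, 8.83 and 8.87 in air females, 8.41 and 8.37 in ozone males and 8.84 and 8.77 in ozone females. The sexes were separate in both ozone groups and in deficient air. No member was called without wildtype ozone F1 or F2 or deficient ozone M1, M2 or F1, and up to 4 were without wildtype air F2. At an unadjusted p under 0.05 there were 14 members (23.3%, against 2591 genes or 20.9% of all), among them Srsf5 (0.33) and Snrpa1 (0.24), with adjusted p of 0.0569 and 0.0553.

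Other genes of the splicing machinery, were measured in 6 lists that hold no member. Of 158 listed 126 were measured, with 27 rises and 35 falls in wildtype mice (21.4% and 27.8%, against 19.6% and 17.1% of all genes) and 28 and 26 in deficient mice (22.2% and 20.6%, against 15.8% and 14.6%). These shares have no test. In the list of SR-related regulators and SR kinases 14 of 23 fell and 1 rose in wildtype mice (60.9% and 4.35%). In deficient mice 12 fell and 1 rose (52.2% and 4.35%). The medians were -0.37 and -0.30 against 0.032 and 0.012 over all genes. Srpk2, a kinase that phosphorylates SR proteins in the cytoplasm, fell by 0.91 ± 0.12 and by 0.84 (adjusted p = 5.87e-05 and 0.000114). Clk1, a nuclear SR protein kinase, fell by 0.76 and 0.52 (adjusted p = 0.000214 and 0.00368). Its relative Clk4 fell by 0.61 in wildtype mice and differed by -0.29 in deficient mice (adjusted p = 0.132). Srpk1 differed by -0.046 in wildtype mice and rose by 0.30 in deficient mice (adjusted p = 0.0491).

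Of the Lsm proteins, which form the ring of U6 and of mRNA decay, 5 of 6 rose and 0 fell in wildtype mice (83.3% and 0%). In deficient mice 4 rose and 0 fell (66.7% and 0%). Lsm2 rose by 1.06 ± 0.10 and by 1.27 (adjusted p = 5.81e-06 and 7.90e-07). Among U1, U2 and tri-snRNP factors 5 rose and 5 fell of 19 in wildtype mice (26.3% each). In deficient mice 6 rose and 3 fell (31.6% and 15.8%), with Snrnp70, a U1 protein, at 0.58 and 0.82. Rbm25, a U1-associated regulator, fell by 0.72 in wildtype mice and differed by -0.27 in deficient mice (adjusted p = 0.0848). In the Prp19, catalytic and exon junction list 4 rose and 6 fell of 27 (14.8% and 22.2%), then 3 and 4 (11.1% and 14.8%). Acin1 was at 0.60 and 0.53. Of 37 other regulators 10 rose and 8 fell (27% and 21.6%), then 11 and 7 (29.7% and 18.9%). Among them Khdrbs3 was at 0.64 in both genotypes, Sfpq at 0.58 and 0.76, and Ptbp2 fell by 0.80 and 0.72. In snRNP assembly and import 2 rose and 2 fell of 14 (14.3% each), then 3 and 0 (21.4% and 0%). Over all genes 19.6% rose and 17.1% fell in wildtype mice, and 15.8% and 14.6% in deficient mice.

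**Figure D5:**
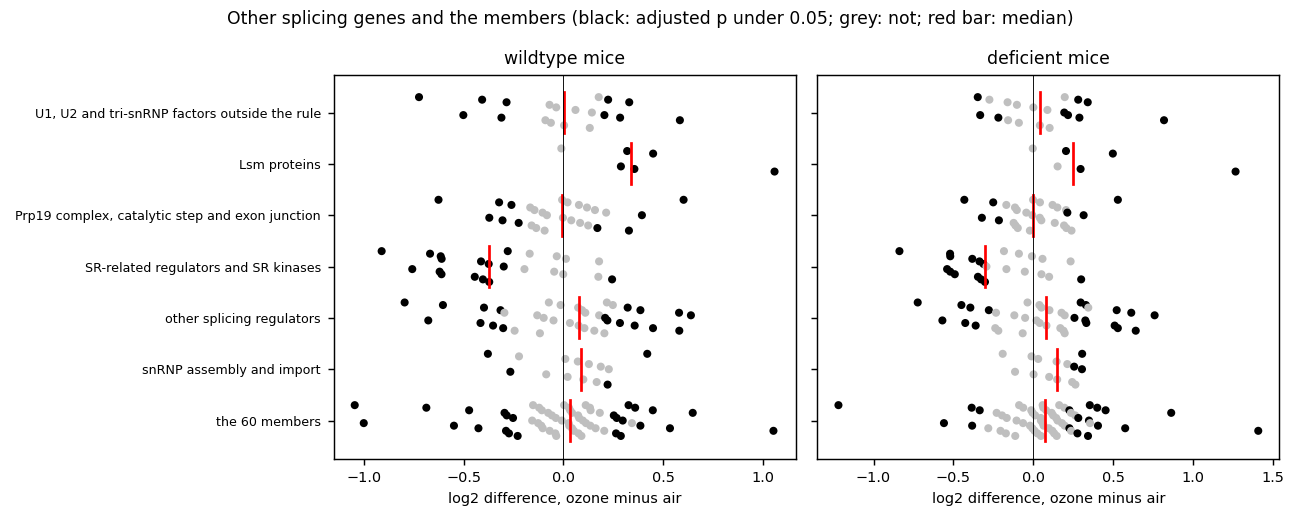
Log2 difference between ozone and air (horizontal axes) of the measured genes of 6 other splicing lists and of the 60 members, in wildtype and in deficient mice; black points have an adjusted p under 0.05, grey points not, red bars are medians and the vertical scatter has no meaning. The SR-related list lies mostly below 0, with medians of -0.37 and -0.30, and the Lsm list above 0, with medians of 0.34 and 0.25.

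Markers of other cells moved with ozone too. Of 19 measured markers of proliferating cells 18 rose in each genotype, and their mean per array went from 6.61 to 6.81 in wildtype air to 8.20 to 8.39 in wildtype ozone, and from 6.77 to 6.81 to 8.37 to 8.65 in deficient mice. Of 10 measured markers of T and NK cells 5 fell in wildtype mice, with array means of 6.62 to 6.95 in air and 6.25 to 6.41 in ozone. In deficient mice 1 rose and 1 fell, with array means of 6.48 to 6.84 in air and 6.32 to 6.84 in ozone. Of 10 markers of fibroblasts and smooth muscle 5 rose and 1 fell in each genotype, with array means of 10.44 to 11.27 in air and 10.90 to 11.57 in ozone in wildtype mice, and of 10.55 to 10.83 and 11.07 to 11.37 in deficient mice. Neutrophil markers reached 10.3 on 1 wildtype ozone array, against 7.10 to 8.23 in both air groups. The part of these cells in the differences of the splicing genes was not tested. As a sign of RNA quality, the 3' minus 5' difference of the Gapdh control probe sets was -0.085 to 0.26 in wildtype air, 0.030 to 0.34 in wildtype ozone, -0.047 to 0.23 in deficient air and 0.027 to 0.41 in deficient ozone. That of Actb was 0.27 to 0.52, 0.28 to 0.53, 0.42 to 0.62 and 0.28 to 0.61, so the groups overlapped on both. In the same order the means were 0.067, 0.16, 0.043 and 0.22 for Gapdh and 0.38, 0.39, 0.51 and 0.43 for Actb. Within each sex the Gapdh values lay higher in ozone than in air without overlap, except in wildtype females. The part of RNA quality in the differences was not tested. Leaving out the 3 air arrays with fat, muscle or squamous markers, 11 members rose and 10 fell in wildtype mice and 11 rose and 4 fell in deficient mice. The shares of all genes called in that fit are not given here.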

How the data were processed

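Total RNA of the left lung was labelled with biotin and hybridised to 16 arrays, per the labels. The sample titles read whole lung RNA. The authors deposited 1 linear intensity per probe set and array, from 11.1 to 26974.7, made with RMA (background correction, normalization between arrays and probe summary) per the submitters' processing notes. The software version is not stated in these sources. Their log2 was taken, and array medians differed by at most 0.076 log2, and a shift common to all genes cannot be seen. Of 22690 probe sets, 64 controls, 691 with several symbols and 1555 with none were left out. Names came from the platform annotation, which can be old. For each of 12393 genes the brightest probe set was fitted with limma 3.58.1 in R 4.3.3 (lmFit, eBayes) with 4 groups and sex, over all 16 arrays, and p-values were adjusted over all genes by Benjamini-Hochberg. The script was tested on simulated data. Nothing says whether mice shared a litter or an array batch, and array dates were not used here.

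The members and the lists were chosen with earlier results of these data known. Genes named with values were the 8 largest rises and falls among members called in each ozone comparison, the called genes or the 3 of smallest p in the genotype, interaction and sex comparisons, members with probe sets called in opposite directions, and 23 fixed members, of which 3 had no probe set with 1 symbol. Up to 4 other splicing genes per direction, and Clk1, Clk4 and Srpk1, were named likewise. Other probe sets, and members such as Srsf6 and Snrpa1, were named after their values were seen. Alternatives were other normalizations, probe set choices, priors, array weights, thresholds, no sex term, a replicate block and arrays left out. Whether replicate labels pair mice was checked by the correlation of deviations from group means between same-labelled mice. The correlations ran from -0.148 to 0.130 and passed 0.1 in 1 of 12 comparisons. They show no pairing by label, but with 2 mice per sex and group they cannot exclude one. Figures were drawn in Python 3.11.15 (matplotlib 3.10.9, pandas 2.3.3).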

Additional observations from a re-analysis of the deposited data

Results flagged for a closer look

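Of 148 groups of 4 arrays tested for the named members, 9 held 1 array far from the other 3, and chance sets apart about 1 in 20 groups. In wildtype air F2 Sf3b1 read 10.32 against 10.59 to 10.62 and U2af1 read 9.33 against 9.48 to 9.50. Deficient air M1 was low for U2af1 (9.24 against 9.41 to 9.43) and for Hnrnpl (7.19 against 7.42 to 7.46). In wildtype ozone, M1 was low for Hnrnpd (10.20 against 10.43 to 10.47), F1 high for Hnrnpm (9.49 against 9.34 to 9.36) and F2 high for Snrpe (11.22 against 10.93 to 10.97). Wildtype air F1, 1 of the arrays with fat markers, was high for U2af2 (10.33 against 10.05 to 10.09). Deficient ozone M1 was low for Luc7l (7.51 against 7.82 to 7.87).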

How the results depend on the processing

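The count of members called in wildtype mice, 24, was 15 at an adjusted p under 0.01 and 5 with at least 1.5-fold as well, and within 1.5 times 24 under the other 29 alternatives. It ran from 20 to 24 with arrays left out in turn, and was 31 on second brightest probe sets and 30 on the mean of all probe sets. With a common median the split was 15 higher and 10 lower. In deficient mice the count of 18 was 3 with at least 1.5-fold, 16 to 21 with arrays left out in turn, and 27 on second brightest probe sets. With the replicate block, though no label states a pairing, the counts were 22 and 18, and 0 for genotype in air, genotype in ozone and the interaction. Those 3 counts stayed at 0 under all alternatives run. Shares of all genes called under the alternatives are not given here, so no change of count is shown to be particular to the members. For sex the count of 1 was 3 with renewed quantile normalization, a common median, dim genes left out, the mean of probe sets and every probe set tested, 2 with a trend and robust prior, array weights or without the 3 air arrays, 0 at an adjusted p under 0.01, with at least 1.5-fold or without the array described as room air, and 0 to 4 with arrays left out in turn. Directions of called values turned with the probe set alone: on the second brightest, Hnrnpab was 0.35 and 0.31 (wildtype, deficient), Hnrnpu 0.49 and 0.63, Hnrnpf 0.27 in wildtype mice, Prpf31 -0.24 and -0.24, Sf3a1 -0.027 and -0.070, Sf3b5 -0.036 and -0.044 on a set dim on all arrays (3.95 to 4.11), and Sf3b2 0.018 in deficient mice. On the mean of all probe sets Hnrnpab was 0.090 and 0.096, and Sf3b2 0.044 in deficient mice. Values not called in the report changed sign in 38 cases, 7 of them then passing, among them Hnrnpa1 at -0.52 and -0.30, Sf3b1 at -0.37 and -0.42 and Prpf4b at -0.40 in deficient mice on the second brightest. The cause was not tested. Apart from the 15 called values that turned, 2124 values of named members kept their side of the threshold, 116 lost the call and 39 gained it. Of the 38 sign changes 31 are among the 2124 and 7 among the 39. Signal over background is unknown, which limits dim members such as Snrpn.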
